A study of Mus musculus with 2 samples.

Results

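p57-positive cancer cells are an epithelial subtype of mouse colon adenoma, named by the authors for p57, the cyclin-dependent kinase inhibitor that Cdkn1c encodes. Their members were taken from the deposited epithelial annotation, which put 288 cells in this subtype, of 3041 epithelial cells and of 14097 cells in all. The adenomas came from the distal colon of Apcmin;LSL-mTERT mice that were 25 weeks old, and were sequenced as single cells (10x Genomics), with 1 library for each of the groups G0+T and G4+T. Both libraries thus carry the Apc mutation and the mTERT allele, and the labels used here give neither the driver that activates that allele nor the number of mice in a library. A second deposited annotation puts every cell of one library in the class CIN_high and every cell of the other in CIN_low. The labels conflict on which class is G0+T and which is G4+T, so the libraries are called by their class and neither is assigned to a genotype. With 1 library per class nothing can be tested between classes, and class, library and mouse cannot be told apart. Intervals below are at 95%, come from counts of UMIs (unique molecular identifiers, each standing for 1 captured RNA molecule) or of cells, and cover counting error only.

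p57 binds cyclin and kinase complexes and holds cells in G1. Cdkn1c is an imprinted gene that is expressed from the maternal copy, and in adult tissues p57 is known for keeping stem cells out of the cell cycle. In the intestine, loss of Apc leaves beta-catenin active and turns on Wnt target genes, among them several that encode inhibitors of Wnt signalling itself.

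The CIN_high library gave 77 p57-positive cells and the CIN_low library 211. They made up 5.85% of the epithelial cells of the CIN_high library (Clopper-Pearson interval 4.64 to 7.26%) and 12.2% of those of the CIN_low library (10.7 to 13.9%). They were shallower than the rest of the epithelium, with a median of 10078 UMIs per cell in CIN_high and 11023 in CIN_low, against 14355 and 16099.5 in the other epithelial cells. Ribosomal protein genes held a median of 9.68% and 9.88% of their UMIs, against 14.0% and 13.4%, and mitochondrial genes 12.2% and 11.8%, against 12.02% and 10.2%. Scrublet called none of the 77 and none of the 211 a doublet, and 3 cells, taken here as the most that a count of 0 allows, would be 3.90% and 1.42%. Over all cell types it called 142 CIN_high cells and 249 CIN_low cells. The libraries shared 11 barcodes, and 1 p57-positive cell carried one of them. Markers of fibroblasts were near 0, with summed levels of 0.126 and 0.0654 UMIs per 10000 and 6 of 11 genes at 0 UMIs in each library. Endothelial markers summed to 0.461 and 1.29, against 0.397 and 0.334 in the other epithelial cells. Of these markers, 4 had a UMI in 5% or more of cells on 1 side in each library. Among the 4, 2 were at least 2-fold higher in both libraries, beside 7.09% of all genes within that limit.

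Cdkn1c (chromosome 7, 143458339 to 143461050, minus strand, mm10) was highest in the cells named for it. Its level, the mean over cells of UMIs per 10000, was 4.91 in CIN_high and 4.78 in CIN_low p57-positive cells, against 0.365 and 0.674 in the other epithelial cells. The ratio of means was 13.5-fold in CIN_high and 7.09-fold in CIN_low, and the ratio of summed UMIs lay between 13.3 and 16.8 and between 7.002 and 8.03. A Cdkn1c UMI was found in 57 of the 77 cells (74.0%) and 171 of the 211 (81.0%). After thinning each cell to 5000 UMIs the shares were 64.8% (52.5 to 75.8%) and 64.6% (57.5 to 71.3%), over the 71 and 195 cells deep enough. Cancer_cell_1, the largest subtype, had thinned shares of 14.3% and 29.5%, and Stem_cell_1 3.55% and 6.19%. In myeloid cells, taken as the background level of free RNA, 1.16% and 1.57% of cells had a Cdkn1c UMI at median depths of 5721.5 and 6171 UMIs. Fibroblasts carried the gene too, at 0.579 and 0.280 UMIs per 10000.

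Among the other epithelial subtypes with at least 20 cells the order was not the same in both libraries. Cdkn1c stood next highest in the Igfbp+ subtype (0.716, found in CIN_high only) and in Cancer_cell_1 (0.588) in CIN_high. In CIN_low the S100a8/S100a9+ subtype (1.19) and Cancer_cell_1 (1.12) lay side by side, followed by Complement+ stem cells at 0.770. Proliferating cells had 0.340 and 0.310, and Secretory cells, Enterocytes and Stem_cell_1 lay at or below 0.211 in both libraries. Against Cancer_cell_1 alone the log2 ratio of Cdkn1c in p57-positive cells was 3.06 in CIN_high and 2.098 in CIN_low.

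Epcam, the epithelial adhesion molecule used to mark the cells as epithelial, was detected in 76 of 77 and 210 of 211 p57-positive cells. Its level of 11.7 and 11.1 was nevertheless the lowest of the subtypes with at least 20 cells, with log2 ratios of -1.25 and -1.45 against the other epithelial cells.

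**Figure D1:**
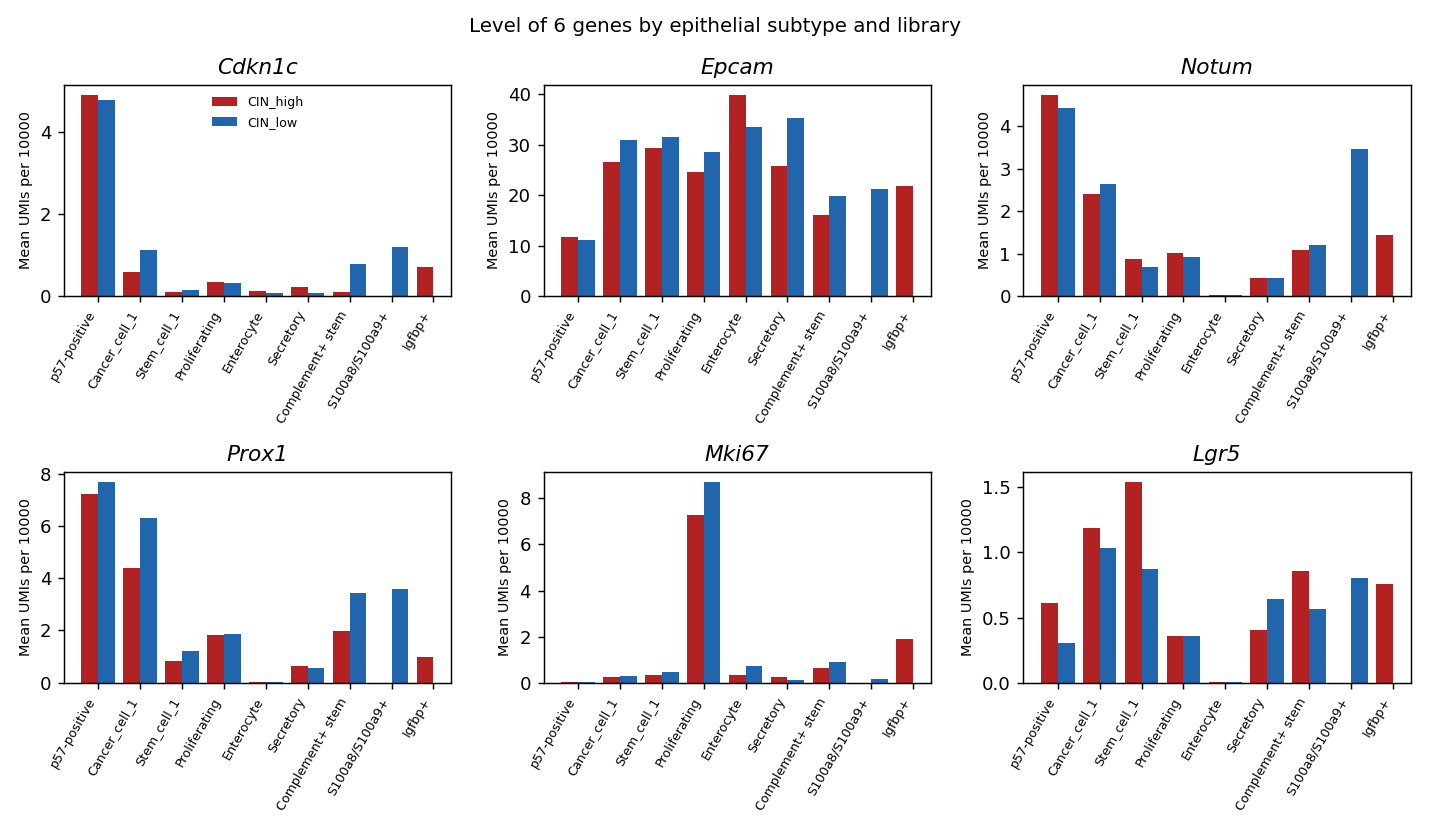
Bars show the mean over cells of UMIs per 10000 for Cdkn1c, Epcam, Notum, Prox1, Mki67 and Lgr5 in each epithelial subtype, in the CIN_high library (red) and the CIN_low library (blue). Subtypes with fewer than 20 cells in a library have no bar, and no error bars are drawn because each bar is 1 library. p57-positive cells have the tallest bars for Cdkn1c, Notum and Prox1 and the shortest for Epcam and Mki67.

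The p57-positive cells were then set against all other epithelial cells within each library. Since the authors' subtypes rest on the expression of these same cells, the ratios describe it and test nothing. A gene was compared if, in each library, the side where it was higher had a level of 0.5 or more and a UMI in 10% or more of its cells. Of the 3590 such genes, 233 (6.49%) were at least 2-fold higher in both libraries and 232 (6.46%) at least 2-fold lower. Just inside the 2-fold line lay Nrp2 and Blvrb, each with a smaller log2 ratio of 1.01, and just outside lay Btg3 and Gmcl1, each at 1.00.

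**Figure D2:**
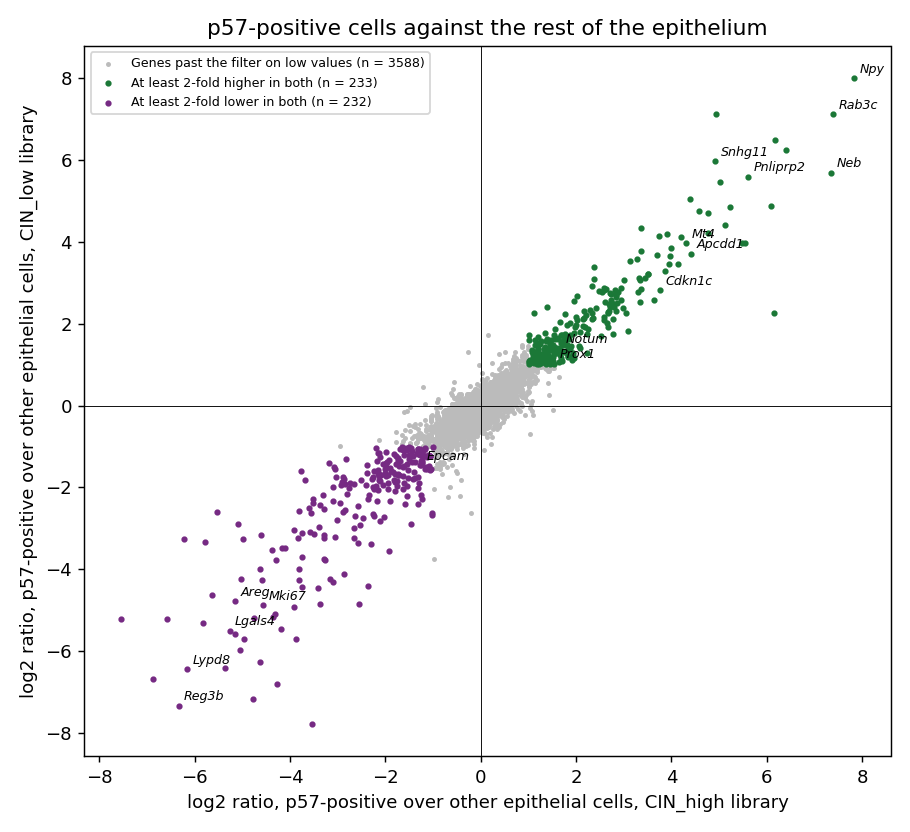
Each point is 1 gene, with its log2 ratio of p57-positive over other epithelial cells in the CIN_high library on the x axis and in the CIN_low library on the y axis. Of the 3590 genes, the 3588 drawn leave out Xist and Tsix; green and purple points are the 233 and 232 genes at least 2-fold higher or lower in both libraries, and the points run along the diagonal.

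Npy led the genes ranked by the smaller of their ratios in the 2 libraries. This neuropeptide gene (chromosome 6, 49822710 to 49829507, plus strand) had 2.46 UMIs per 10000 in CIN_high and 1.68 in CIN_low p57-positive cells, against 0.0109 and 0.00654. Only 18.2% and 18.0% of p57-positive cells had an Npy UMI, so the mean came from a minority of them. Rab3c, a GTPase of secretory vesicles, had 0.870 and 0.936 UMIs per 10000, with log2 ratios of 7.40 and 7.12. Nptx1, a secreted synaptic protein, had log2 ratios of 6.08 and 4.88, and Snhg11, a non-coding RNA, 4.92 and 5.97. Ptn, the growth factor pleiotrophin, was named after its values were seen. It was among the most abundant of the higher genes, at 27.6 and 34.7 UMIs per 10000 against 2.43 and 3.75, and only 7 of 77 and 1 of 211 cells lacked a UMI.

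Pnliprp2 encodes a pancreatic lipase-related protein (chromosome 19, 58759719 to 58777534, plus strand). Its level was 12.8 and 20.7 UMIs per 10000 against 0.263 and 0.426, with a UMI in 58.4% and 71.1% of p57-positive cells. Its relative Pnliprp1 had 6.67 and 7.76, against 0.426 and 0.615. Mt4, a metallothionein best known from stratified epithelium (chromosome 8, 94137197 to 94139031, plus strand), had 18.3 and 22.9, against 0.922 and 1.45. Mt3, another metallothionein, had 20.6 and 16.0 against 1.41 and 1.62 and was named after its values were seen. Its thinned shares were 93.0% and 89.2% in p57-positive cells and 33.5% and 42.7% in Cancer_cell_1.

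Other genes among the 25 with the largest ratios encode proteins of varied kinds. Fetub, a protease inhibitor, had log2 ratios of 5.02 and 5.46, and Cxcl14, a chemokine, 4.93 and 7.14. Neb, the muscle protein nebulin, had 7.35 and 5.70, and Lect2, a secreted protein mainly made by liver, 5.48 and 3.97. Muc6, a gel-forming mucin of the stomach, had 5.53 and 3.98. Gulo, an enzyme of vitamin C synthesis, had 6.16 and 6.51, and Slc7a8, an amino acid transporter, 4.76 and 4.21. Vim, the intermediate filament of mesenchymal cells, named after its values were seen, had 15.3 and 19.3 UMIs per 10000, against 1.999 and 3.20. In the same libraries endothelial cells had 17.8 and 21.7 UMIs per 10000 of Vim and fibroblasts 14.3 and 8.27. Beside the fibroblast and endothelial marker values given above, the part of other cell types in the Vim level was not tested.

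Being higher than the average of the other cells did not always mean standing apart from every subtype. Of the 233 genes, 126 in CIN_high and 120 in CIN_low were also at least 2-fold above the highest of the other subtypes. The next highest subtype was Cancer_cell_1 for 106 of them in CIN_high and 112 in CIN_low. Against Cancer_cell_1 as the only comparator, 145 genes were at least 2-fold higher in both libraries, 140 of them among the 233, and 98 were lower, 89 of them among the 232.

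Wnt target genes split. Of 24 listed targets 21 were measured, meaning that 5% or more of the cells on 1 side or the other had a UMI in each library; 7 were higher in both libraries and 3 lower. Over all 11418 genes measured by that rule, 7.09% were higher and 8.2% lower. These shares are the background for every count of list members set against the other epithelial cells below. Nkd1, an inhibitor of Dishevelled, had 9.68 and 10.6 UMIs per 10000 in p57-positive cells, against 2.76 and 3.79. Lef1, a partner of beta-catenin on DNA, had 1.39 and 1.68, against 0.306 and 0.444. Sp5, a transcription factor, had 1.04 and 1.08, against 0.255 and 0.252, and Tcf7 had log2 ratios of 1.63 and 1.62. Prox1, a homeobox factor, had 7.21 and 7.69 against 2.47 and 3.77, but 4.37 and 6.31 in Cancer_cell_1. Znrf3, a ligase that removes Wnt receptors, and Notum complete the 7. Ccnd1, Ascl2 and Cdx1 were lower, and Axin2 was just short of the line in CIN_high, with log2 ratios of 0.80 and 1.10. Myc had -0.20 and -0.03. Lgr5, the receptor that marks crypt base stem cells, had 0.609 and 0.305 against 1.06 and 0.798. The list medians were -0.01 in CIN_high and 0.20 in CIN_low, beside 0.01 and -0.06 over all measured genes.

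Most measured genes for secreted and surface Wnt antagonists were higher. Of 16 listed, 7 were measured and 5 were higher in both libraries, beside 7.09% of all measured genes. None was lower in both, but 1 was at least 2-fold lower in CIN_low. The medians were 1.66 and 1.40. Notum, an enzyme that strips the lipid from Wnt proteins (chromosome 11, 120653788 to 120661175, minus strand), had 4.74 and 4.43 UMIs per 10000 against 1.499 and 1.68. Wif1, a secreted Wnt-binding protein, had 8.81 and 10.2, against 3.54 and 4.25. Apcdd1, a membrane inhibitor of Wnt, had 4.14 and 5.68, against 0.194 and 0.434. For Dkk3, a Dickkopf family member, the log2 ratios were 4.14 and 3.48, and for Kremen1, a Dickkopf receptor, 1.76 and 1.63. Dkk2 did not reach the line, at 0.29 and 0.69. Cancer_cell_1 shared part of this, with Notum at 2.41 and 2.64 and Wif1 at 6.29 and 7.01, while Apcdd1 had 0.349 and 0.691 there and Dkk3 0.217 and 0.325. The Wnt ligands Wnt6 and Wnt10a, chosen after their values were seen, had log2 ratios of 2.84 and 2.72 and of 2.99 and 2.39.

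The promoters of the higher genes were searched for CTTTGAT and its reverse complement ATCAAAG, the core letters bound by Lef1 and Tcf factors, in RefSeq windows (GRCm38.p6) from 250 bases before to 50 bases after each start. Of the 233 higher genes 172 had a window, and 13 of these (7.56%) held the motif. The share was 2.34% for the lower genes (4 of 171), 2.92% for the 2844 tested genes with a window and 4.29% for all 27025 genes with one. Of the 16 listed Wnt targets with a window 2 (12.5%) held it. The 13 genes were Clcn3, Dach1, Foxa2, Itm2c, Lamp2, Lect2, Nrp2, Rbms3, Sox6, Sp5, Stra6, Tmem176a and Tmem176b, and the windows of the last 2 overlap. Lef1, Tcf7, Axin2, Wif1, Nkd1 and Prox1 held no match in their windows. Cdkn1c, Notum, Kremen1, Dkk3 and Znrf3 had no window and could not be searched. A match describes letters only. The 2 windows below are shown because Sp5 is the listed Wnt target among the 13 and Lect2 the gene with the largest ratio among the 13; capitals mark the motif. Sp5 lies at chr2:70474673-70474972 on the plus strand, with CTTTGAT, and Lect2 at chr13:56548489-56548788 on the minus strand, with ATCAAAG.
Sp5: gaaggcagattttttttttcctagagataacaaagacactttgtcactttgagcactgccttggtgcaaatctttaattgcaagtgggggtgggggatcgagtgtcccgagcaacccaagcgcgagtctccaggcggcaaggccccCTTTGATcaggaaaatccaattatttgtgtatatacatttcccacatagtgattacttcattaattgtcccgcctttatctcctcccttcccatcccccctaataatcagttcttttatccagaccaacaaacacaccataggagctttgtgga
Lect2: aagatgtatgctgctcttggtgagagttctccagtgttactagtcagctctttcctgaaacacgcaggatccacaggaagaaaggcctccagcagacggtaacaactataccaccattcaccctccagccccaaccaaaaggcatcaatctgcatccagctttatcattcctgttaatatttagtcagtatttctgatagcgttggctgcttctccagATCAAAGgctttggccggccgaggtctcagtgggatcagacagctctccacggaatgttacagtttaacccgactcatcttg

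Cell cycle genes were low. Mki67, a marker of cycling cells, had 0.0400 and 0.0509 UMIs per 10000 in p57-positive cells, with a UMI in 3 of 77 and 10 of 211, against 0.951 and 1.49 in the other epithelial cells and 7.28 and 8.72 in the Proliferating subtype. After thinning to 5000 UMIs, 0 of 71 cells in CIN_high (Clopper-Pearson upper bound 5.06%) and 4 of 195 in CIN_low (2.05%, 0.562 to 5.17%) had a Mki67 UMI. The shares were 5.29% and 6.83% in Cancer_cell_1 and 8.71% and 13.4% in Stem_cell_1. Of 20 listed genes of G2 and M phase, all measured, 16 were lower in both libraries and none was higher, with medians of -2.55 and -4.42. With thinned cells the medians were -1.24 and -3.21. The other epithelial cells include the Proliferating subtype, and the cell cycle lists were not set against Cancer_cell_1 alone. For Top2a, the thinned shares of p57-positive cells were 2.82% (0.343 to 9.81%) and 2.56% (0.838 to 5.88%). In Cancer_cell_1 they were 5.29% and 6.69%. Of 20 genes of S phase 10 were lower. Among cyclins and their kinases 7 of 17 measured were lower, among them Ccnd1 (-1.61 and -1.02), Ccnd2 (-1.26 and -1.36) and Cdk1 (-4.08 and -5.94). Cdk4 and Cdk6, which partner D cyclins, did not reach the line.

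Cdkn1c was the only measured one of the 8 listed inhibitors of these kinases past the line in both libraries. Cdkn1a, which encodes p21, had 3.43 and 2.56 UMIs per 10000 against 5.00 and 2.79, and Cdkn1b, which encodes p27, 0.283 and 0.418 against 0.388 and 0.423. A Cdkn1c UMI and a Mki67 UMI met in 9 of the 228 p57-positive cells with Cdkn1c, and Mki67 was found in 13 of all 288. In Cancer_cell_1 they met in 69 of the 471 cells with Cdkn1c, and Mki67 was found in 170 of all 1259. In the Proliferating subtype, where Mki67 was found in 297 of 310 cells, they met in 108 of the 112 cells with Cdkn1c.

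Imprinted genes were taken as a group because Cdkn1c is one. Of its 18 listed neighbours on distal chromosome 7, itself included, 13 were measured and only Cdkn1c was higher in both libraries. Kcnq1ot1, the non-coding RNA of the same domain, had 3.09 and 3.73 UMIs per 10000 against 2.68 and 2.52. Phlda2 had log2 ratios of -4.12 and -1.73 and Ascl2 -2.01 and -1.13. Of 20 imprinted genes elsewhere 8 were measured, 4 were higher and none was lower, beside 7.09% and 8.2% of all measured genes. The medians of these 8 were 1.02 and 0.90, and thinning gave 0.56 in CIN_low. Plagl1, a zinc finger factor (chromosome 10), had 1.07 and 1.20 against 0.0935 and 0.130. The others were Peg3, with log2 ratios of 5.89 and 5.70, Grb10, with 3.77 and 5.52, and Nnat, with 1.03 and 1.07. Peg3 and Grb10 rested on low levels, at most 0.577 UMIs per 10000.

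Of 17 measured genes of the BMP and TGF-beta pathways 2 were higher in both libraries, beside 7.09% of all measured genes. The list medians were 0.17 and 0.39. The higher genes were the ligands Tgfb2, with log2 ratios of 4.64 and 7.19, and Bmp7, with 2.67 and 1.93. Tgfb1, Tgfbi and the receptor Tgfbr2 were lower. The target Id1 had 3.93 and 4.87 UMIs per 10000 against 4.21 and 5.11.

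Genes of differentiated colon had the lowest list median. All 9 measured colonocyte genes, of 15 listed, were lower in both libraries, with medians of -4.28 and -4.47. The other epithelial cells include Enterocytes, and the list was not set against Cancer_cell_1 alone. Lypd8, a protein that keeps bacteria off the colon surface, had 0.179 and 0.101 UMIs per 10000, against 12.7 and 8.84. Lgals4, a galectin of the gut lining, had 0.315 and 0.235 against 12.2 and 10.6. Krt20 had log2 ratios of -5.47 and -5.58. Dmbt1, a secreted defence protein, had 0.0311 and 0.0386, against 3.67 and 3.99. Reg3b, an antimicrobial lectin, had no UMI in CIN_high p57-positive cells, which makes it at least 80.8-fold lower, and 0.0165 in CIN_low against 2.67. Of 7 measured goblet cell genes 4 were lower, among them Muc2 with -4.51 and -4.19. Here the other epithelial cells include Secretory cells, and this list too was not set against Cancer_cell_1 alone. Against Cancer_cell_1, Spink4 turned from lower to higher, with log2 ratios of 1.59 and 0.35. Of 11 measured genes of epithelial identity 7 were lower and none was higher. Krt8 had 9.32 and 10.6 against 23.3 and 22.0, and its partner Krt18 had 11.4 and 12.6 against 11.9 and 12.3. Cdx2, a factor of intestinal identity, had no UMI in any of the 288 cells. A count of 0 allows up to 1.04% of cells with a UMI (3 of 288) and sets no limit on cells that express the gene. In Cancer_cell_1 Cdx2 had a UMI in 2 of 549 and 1 of 710 cells.

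Genes of repair and of defence were also low. Of 15 measured genes of the fetal-like state 8 were lower and none was higher. Among them Ly6a had log2 ratios of -5.54 and -2.60, and Areg, a ligand of the EGF receptor, 0.0776 and 0.0726 UMIs per 10000 against 2.76 and 1.99. Of 21 measured interferon response genes 11 were lower, among them Ifit3 (-4.11 and -4.19) and Isg15 (-2.86 and -1.79), and Usp18, which dampens interferon signalling, was higher (1.21 and 1.69). Of 18 measured NF-kB mediators 8 were lower and none was higher. Their median in CIN_low was -0.99, and -0.70 without the cells called doublets. The lists of this paragraph were not set against Cancer_cell_1 alone. Against that subtype the CIN_low log2 ratios of Il1b and S100a9 turned positive, at 0.64 and 0.12. Of 10 measured macrophage markers 9 were also lower, with medians of -2.52 and -1.79. Without the cells called doublets these medians were -1.27 and -0.58. The part of macrophage RNA in these counts was not tested. None of the 13 measured genes of the unfolded protein response passed the line either way. Of 16 genes of dissociation stress 1 was higher and 1 lower, beside 7.09% and 8.2% of all measured genes.

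**Figure D3:**
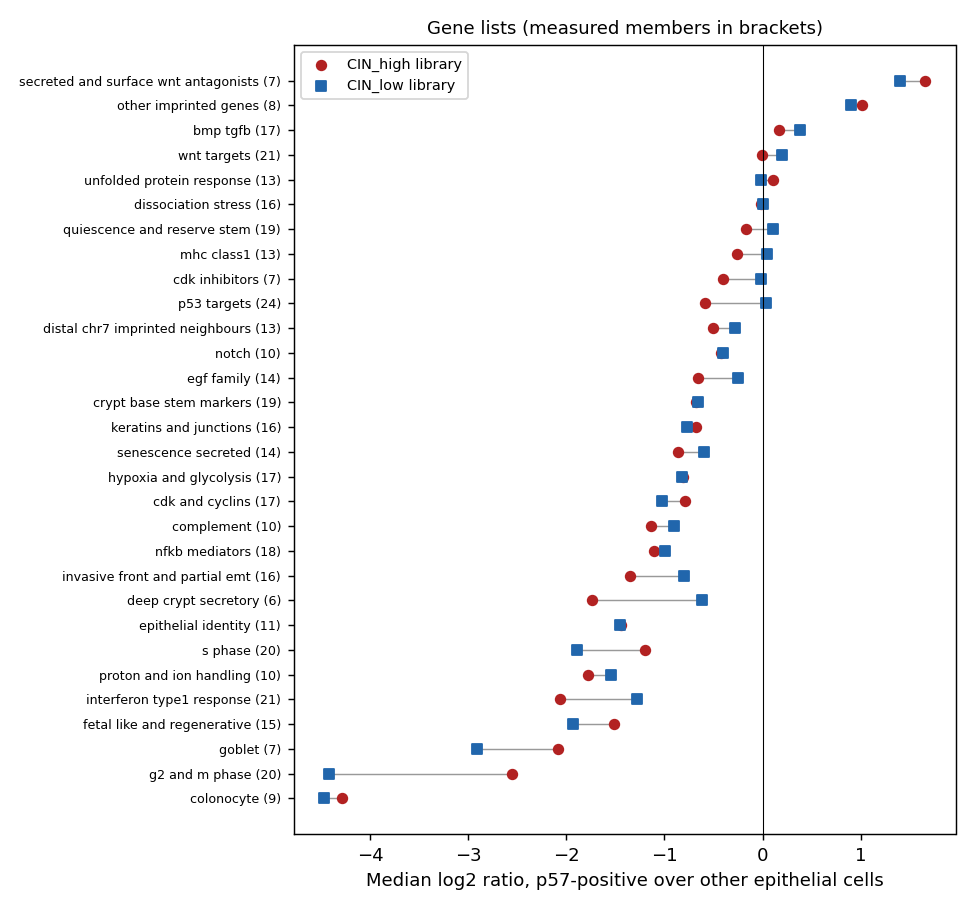
Each row is a gene list with at least 6 measured members, given in brackets, without the marker lists of other cell types, and the points give the median log2 ratio of p57-positive over other epithelial cells in the CIN_high (circles) and CIN_low (squares) libraries. Among the lists drawn, Wnt antagonists lie furthest right, at 1.66 and 1.40, and colonocyte genes furthest left, at -4.28 and -4.47.

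Over the 16 means of a subtype in a library with at least 20 cells, the genes whose log2 level was most like that of Cdkn1c were Pnliprp2 (Pearson r 0.968), Plagl1 (0.962), Tmod2 (0.958), Atp10a (0.955) and Enah (0.944), of 3445 genes ranked. Cacna1a, Pnliprp1, Dkk3, Apcdd1 and Mt3 followed, from 0.943 to 0.933. The means share 2 libraries, and both p57-positive means weigh heavily in each r.

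Within the subtype the same genes varied widely from cell to cell. Cdkn1c had a median of 2.19 UMIs per 10000 over the 77 CIN_high cells and a highest value of 45.2, with no UMI in 20 cells. In CIN_low the median was 2.73 and the highest 69.4, with no UMI in 40 cells. Pnliprp2 was absent from 32 and 61 cells and reached 139 and 271. Mt3 was missing from only 4 and 13 cells.

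Correlations were taken over cells thinned to 5000 UMIs, 65 in CIN_high and 195 in CIN_low, and are a description of sparse counts. The 65 leave out 6 CIN_high cells with enteroendocrine genes, which are described further on. Over 630 pairs of 36 genes the median r was 0.0454 and 0.0883. In both libraries 20 pairs had an r above 0.3 and 6 an r below -0.3. Pnliprp1 and Pnliprp2 went together most, with r of 0.597 and 0.755. Mt4 went with Vim (0.529 and 0.578) and with Mt3 (0.391 and 0.532). Fetub went with Cxcl14 (0.510 and 0.510) and with Snhg11 (0.346 and 0.607). Some pairs across these sets were negative, with r of -0.331 and -0.470 for Cxcl14 and Mt4 and of -0.387 and -0.363 for Cxcl14 and Vim. Others were not: Pnliprp2 and Snhg11 had r of 0.314 and 0.226. Plat, the tissue plasminogen activator, went with Apcdd1 (0.330 and 0.495) and against Mt4 (-0.349 and -0.452). Cdkn1a and Cdkn1c had r of -0.465 and -0.158.

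**Figure D4:**
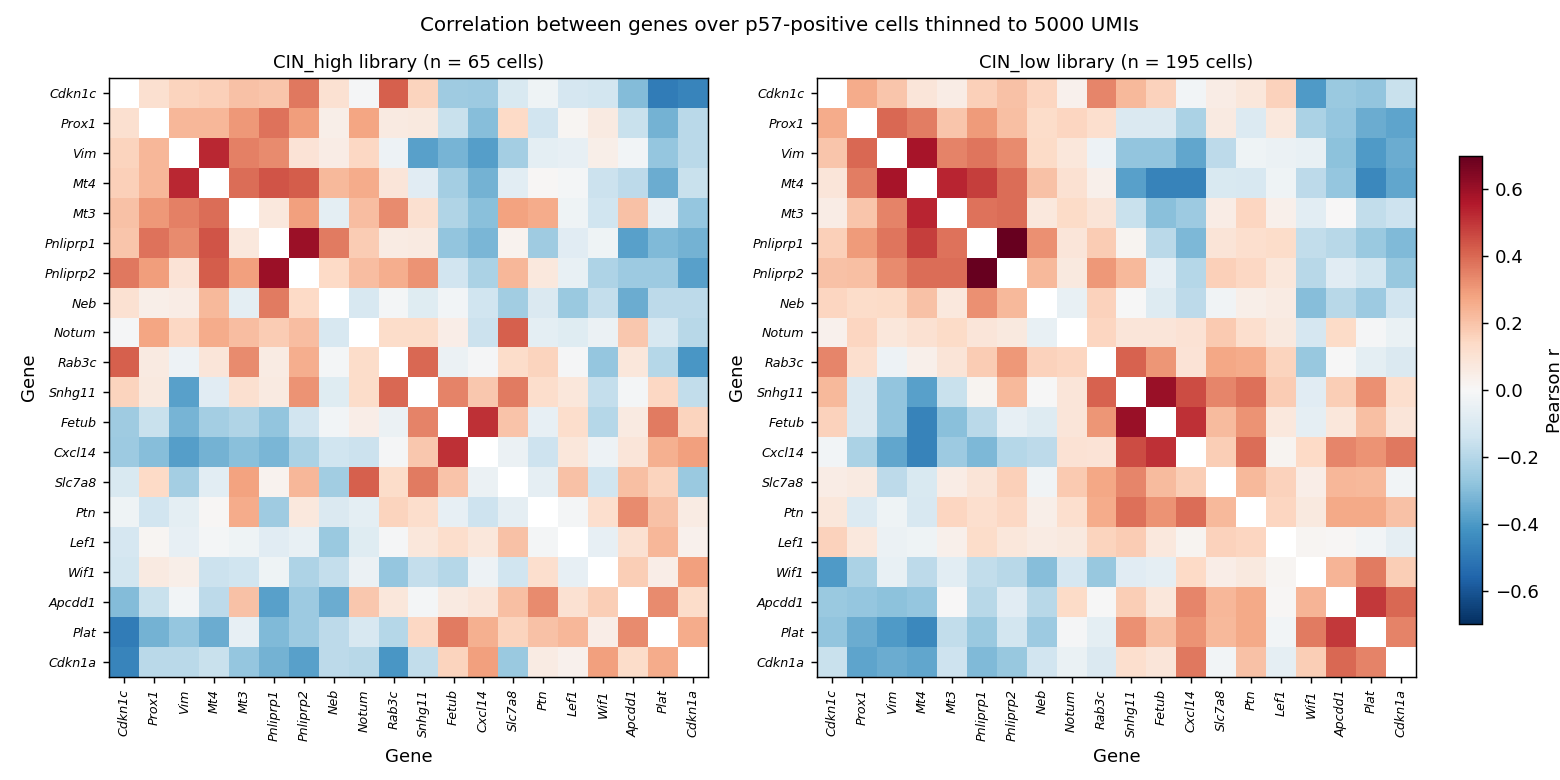
Each square is the Pearson r of 2 genes over p57-positive cells thinned to 5000 UMIs, with genes on both axes, CIN_high (65 cells, without the 6 with enteroendocrine genes) on the left and CIN_low (195 cells) on the right. Red is positive and blue negative; the squares of Pnliprp1 with Pnliprp2, Mt4 with Vim and Fetub with Cxcl14 are red in both libraries.

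In the CIN_high library 6 of the 77 p57-positive cells (7.79%) held UMIs of at least 5 of 17 enteroendocrine genes. Such cells numbered 0 of 211 in CIN_low, which by the same limit of 3 cells allows up to 1.42%. The 6 cells had 2182 of the 2185 Pyy UMIs and all 286 Chga UMIs of the CIN_high p57-positive cells. All 6 had an Epcam UMI, and 2 had a Cdkn1c UMI. Without them the CIN_high level of Rab3c was 0.579 in place of 0.870 UMIs per 10000 and that of Peg3 0.346 in place of 0.577, while Npy had 2.67 and Snhg11 4.25. The counts of genes between classes are given with and without these cells.

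Between the classes, Cdkn1c itself differed little in p57-positive cells, at 1.03-fold CIN_high over CIN_low (ratio of summed UMIs 0.967 to 1.20). In Cancer_cell_1 its log2 ratio was -0.93. The same limits on level and share of cells, with 30 UMIs or more over both classes, left 3625 genes. Of these, 121 (3.34%) were at least 1.5-fold higher in CIN_high and 213 (5.88%) at least 1.5-fold lower. In cells simulated at the same depths from 1 mean profile, 0.654% of unchanged genes were called higher and 1.49% lower. Without the 6 cells the counts were 95 (2.64%) and 202 (5.62%), with 79 and 179 genes shared. After thinning to 5000 UMIs, which also left out the 6 and 16 shallower p57-positive cells, the counts were 266 and 321, with 76 and 133 shared.

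Of the genes higher in CIN_high, Wfdc18, a secreted protein with a protease inhibitor fold, had 9.75 against 1.40 UMIs per 10000. Mptx2, a pentraxin, had 7.99 against 1.28, with a UMI in 11 of 77 and 39 of 211 cells. Clu, the secreted chaperone clusterin, had 1.74 against 0.512, 3.40-fold (summed UMIs 2.32 to 3.81). For these 3 genes the log2 ratio without the 6 cells was 2.92, 2.76 and 1.87, against 2.80, 2.64 and 1.77 with them. Selenom and Map1b were different: their log2 ratios of 2.69 and 2.05 were 0.61 and 0.62 without the 6 cells. Uchl1, a ubiquitin hydrolase of neurons and endocrine cells, had 3.07 with them and 2.13 without, with a UMI in 12 of 77 and 7 of 211 cells. The imprinted gene Peg3 had 2.75 and 2.01, and in Cancer_cell_1 it had 7 UMIs in the CIN_high and 0 in the CIN_low library. Lgr5 had 0.609 against 0.305, 1.996-fold (1.28 to 2.61), and 2.11-fold without the 6 cells.

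Of the genes lower in CIN_high, Ly6a had 0.141 against 0.925 UMIs per 10000 and Bmp2, a secreted ligand of the TGF-beta family, 0.238 against 0.960. Lyz1, a lysozyme, had 0.430 against 1.96, and Iigp1, an interferon-induced GTPase, 0.311 against 1.29. Tpsb2, a protease of mast cells, had 0.0940 against 0.802, with a UMI in 5 of 77 and 47 of 211 cells. Among the non-epithelial cell types with at least 20 cells its highest CIN_low level was 0.0117, in pericytes. Cldn5, an endothelial junction protein, had 0.188 against 0.702. Endothelial cells themselves had 1.59 UMIs per 10000 of Cldn5 in CIN_high and 0.662 in CIN_low. In p57-positive cells endothelial markers as a list had a median of -1.34 over the 4 measured. S100a9, a neutrophil protein, had a log2 ratio of -1.98 in p57-positive cells and -1.56 in Cancer_cell_1. Its partner S100a8 had a UMI in 37.5% of CIN_high and 86.0% of CIN_low B cells, which should lack it, at median depths of 3861 and 6203 UMIs. Without the 6 cells the log2 ratios of these 7 genes ran from -2.98 (Tpsb2) to -1.78 (Cldn5). The part of such free RNA in the class ratios was not tested.

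By list, 7 of 12 measured genes of the senescence secretome were lower in CIN_high p57-positive cells and none was higher, with a median of -0.80. Over all 11327 genes measured for this comparison 12.3% were higher and 15.1% lower, with a median of -0.03. Of 17 NF-kB mediators 7 were lower and none was higher, with a median of -0.47. Of 17 interferon response genes 5 were lower and 1 higher. Of 23 p53 targets 3 were higher and 1 lower. Without the 6 cells these counts of list members were the same, and the medians were -0.80 for the senescence secretome and -0.35 for NF-kB mediators.

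**Figure D5:**
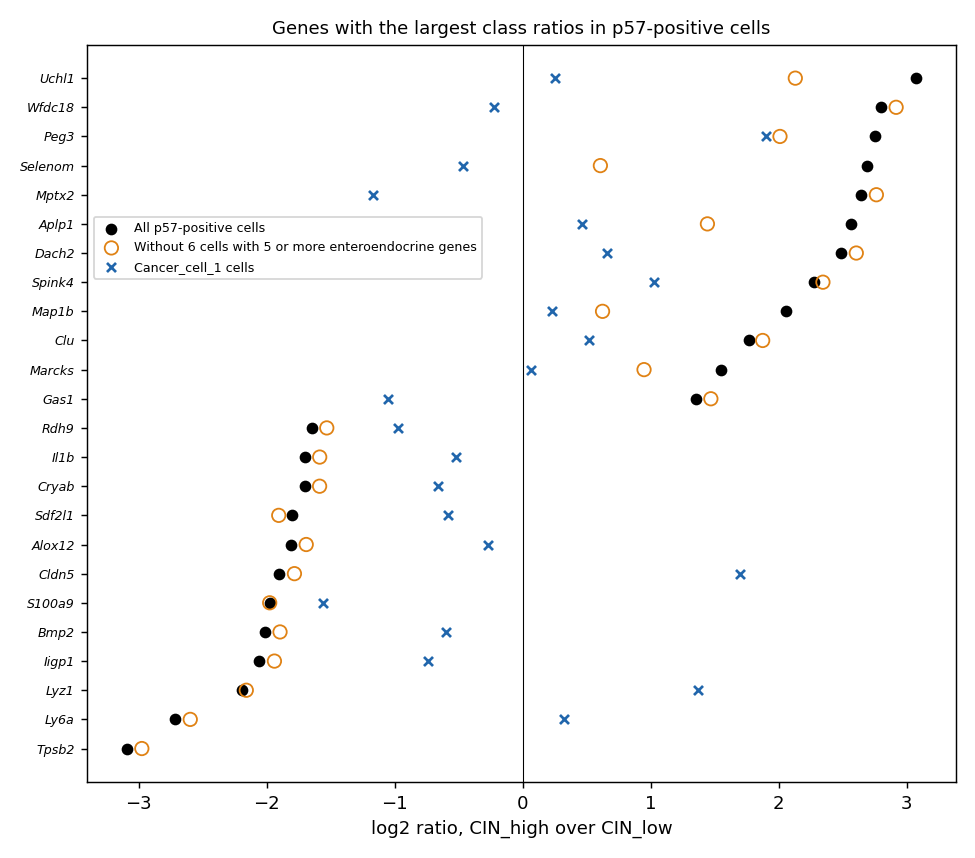
Each row is 1 of the 24 genes with the largest log2 ratio of CIN_high over CIN_low in p57-positive cells. Filled circles are all p57-positive cells, open circles leave out the 6 cells with enteroendocrine genes, and crosses are Cancer_cell_1; Selenom and Map1b move toward 0 without the 6 cells, and Wfdc18, Selenom, Mptx2, Gas1, Cldn5, Lyz1 and Ly6a lie on opposite sides of 0 in the 2 subtypes. Tpsb2 has no cross because Cancer_cell_1 held at most 3 of its UMIs in a library, and the cross of Peg3 sets 0 UMIs to 3.

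Tert was sparse. It had a UMI in 0 of 77 CIN_high p57-positive cells, which allows up to 3.90% of cells with a UMI (3 of 77), and in 16 of 211 in CIN_low (7.58%). Its level in CIN_low p57-positive cells was 0.0448 UMIs per 10000, against 0.0264 in the other epithelial cells. The absence in CIN_high was not particular to p57-positive cells. No Cancer_cell_1, Stem_cell_1, Proliferating or Enterocyte cell of that library had a Tert UMI either. In CIN_low it was found in 5.21% of Cancer_cell_1, 3.55% of Stem_cell_1 and 4.02% of Proliferating cells, and in no Enterocyte. Apc had 1.55 and 1.52 against 1.32 and 1.28.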

How the data were processed

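Reads of 2 droplet libraries went through Cell Ranger 2.1.1 and Seurat, with mm10 as the build, per the submitters' processing notes. Tool settings, the gene annotation and any filter on cells were not given in the sources used here. The authors deposited natural log values, ln(1 + UMIs per 10000), as the values themselves show, with a class and a cell type per cell. Counts had been foreseen, so levels were taken on the linear scale; UMIs were recovered as whole numbers for 100% of non-zero values within a tolerance of 0.01. Levels average UMIs per 10000 over cells, and a side with 0 UMIs was set to 3 UMIs.

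Intervals at 95% are exact binomial ones, from summed UMIs (conditional) or cells (Clopper-Pearson); the limit that a count of 0 cells allows was set at 3 cells. Named genes were the 25 with the largest and the 15 with the smallest ratio by the less extreme library, the 12 largest each way between classes, the 10 most like Cdkn1c over subtype means (log2 of level plus 0.1), and 10 genes of interest. Genes left out were predicted ones, immune receptor segments, sex-linked check genes and those for hemoglobin, mitochondrial and ribosomal proteins. The members, these rules and 40 gene lists were chosen with earlier results of these data known. Scrublet (Scanpy 1.11.5, expected doublet rate 6%) was run per library, and its calls stayed in. Gene positions come from GENCODE vM21. Functions were tested on simulated data. Alternatives covered the cells, scaling, depth, comparator and thresholds. Python 3.11.15, numpy 2.4.6, pandas 2.3.3, SciPy 1.17.1 and matplotlib 3.10.9 were used.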

Additional observations from a re-analysis of the deposited data

Results flagged for a closer look

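Of the named genes, 5 were at least 1.5-fold higher in one class in p57-positive cells and at least 1.5-fold higher in the other class in Cancer_cell_1, with a counting interval that left out equal levels in both subtypes. Other named genes, such as Cldn5 with 6 and 2 UMIs in Cancer_cell_1, had opposite signs without meeting these limits. This difference was not tested, since each class is 1 library. Mptx2 had 2.64 in p57-positive cells and -1.17 in Cancer_cell_1. Gas1, a membrane protein of growth arrest, had 1.35 and -1.05. Nptx1 had 0.60 and -1.99, and Neb had 0.75 and -0.75. Lyz1 ran the other way, with -2.19 in p57-positive cells and 1.37 in Cancer_cell_1.

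Selenom was higher in p57-positive than in other epithelial cells of the CIN_high library (log2 ratio 1.02) and lower in the CIN_low library (-1.15). Without the 6 cells with enteroendocrine genes the CIN_high ratio was -1.06. The difference between the libraries was not tested.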

How the results depend on the processing

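No paired analysis was possible because each class is 1 library. Without the 6 cells with enteroendocrine genes, a setting chosen after seeing the data, the enteroendocrine list median in CIN_high was -0.36 in place of 3.18 and its class median 1.67 in place of 3.73. Against Cancer_cell_1 as the only comparator 145 genes were higher and 98 lower. With genes in 5% of cells and no minimum level the counts were 809 and 936, and 748 and 1205 between classes; at the higher fold threshold they were 118 and 139, and 22 and 44. Class counts were 203 higher with totals that leave out mitochondrial and ribosomal protein genes, and 266 higher and 321 lower with thinned cells.

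Of the list medians 606 values stayed within the medians of their members' interval ends, 23 moved outside and 1 reversed. List medians were not taken against the other comparators. Of the values of named genes 1284 stayed within their counting interval, 471 moved outside and 11 reversed. Without called doublets, the median of macrophage markers was -1.27 in place of -2.52 in CIN_high and -0.58 in place of -1.79 in CIN_low. In CIN_low the EGF family had -0.29 in place of -0.25 and NF-kB -0.70 in place of -0.99. Complement had -0.19 in place of -0.91 and epithelial identity -1.49 in place of -1.45. Neutrophil markers had -0.91 in place of -1.90. With only cells that had a Cdkn1c UMI, the medians were 2.17 for enteroendocrine genes and -1.75 for epithelial identity in CIN_high, and in CIN_low -1.07 for the invasive front, -0.50 for deep crypt secretory genes and -0.34 for the EGF family. With totals that leave out mitochondrial and ribosomal protein genes, CIN_low had 1.39 for Wnt antagonists, -0.28 for the EGF family, -0.020 for dissociation stress and -1.47 for epithelial identity. Thinning gave -1.24 (CIN_high) and -3.21 (CIN_low) for G2 and M phase, 0.56 for other imprinted genes, -0.80 for the senescence secretome and -1.53 for epithelial identity in CIN_low, and 2.63 for enteroendocrine genes between classes.

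Single genes turned in 11 cases. Selenom in CIN_high had -0.58 with only cells that had a Cdkn1c UMI, -1.06 without the 6 cells and -0.48 with equally weighted subtypes. Against Cancer_cell_1, Selenom had 0.16 in CIN_low, Spink4 1.59 and 0.35, Lyz1 0.49 in CIN_high, and S100a9 0.12 and Il1b 0.64 in CIN_low. Thinning gave class ratios of 1.46 for Ifi27l2b and 2.04 for Anxa8. Apart from fewer cells or genes, the cause was not tested. With 77 CIN_high cells, ratios of genes with few UMIs are limited by counting error.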
